A study of Homo sapiens with 6 samples.

Results

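The genes described here build and anchor the actin cytoskeleton. They were the 47 rows of the count table whose symbol belongs to a list of actins, crosslinkers, myosins, filament turnover factors and focal adhesion genes, out of 58243 genes in all. The rule goes by symbol and uses no measured value, but the list was drawn up with earlier results of these data known. RNA was sequenced from cells labelled Hep3B, a cell line from a human hepatocellular carcinoma, grown in DMEM with serum. The 3 si-SNHG17-1 libraries came from cells that had received an siRNA, a short duplex that degrades the RNA it pairs with, directed at the noncoding RNA SNHG17, and the 3 si-NC libraries from cells transfected with the control siRNA. A single siRNA stands for the knockdown in this comparison, and both groups were transfected. Whether the replicates are separate cultures is not stated in the labels, and the p-values below may therefore rest on technical spread among these libraries only. In bulk RNA, fewer cells of a kind and less RNA per cell cannot be told apart.

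Actin monomers assemble into filaments that are nucleated by formins and by the Arp2/3 complex, supplied with monomers by profilin and thymosin, and taken apart by cofilins. Crosslinkers such as filamin and alpha-actinin tie filaments into networks and bundles, and nonmuscle myosin II pulls on them after its regulatory light chains are phosphorylated. At focal adhesions talin and vinculin couple the filaments to integrins, and this coupling carries the traction that epithelial and carcinoma cells use to spread and migrate. The balance of free and polymerised actin also sets the activity of the transcription factor SRF through its actin-sensing coactivators, and SRF in turn binds CArG boxes in many cytoskeletal genes.

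Total counts were 30207055 to 41620321 in the si-SNHG17-1 libraries and 38245838 to 42271168 in the si-NC libraries. The targeted SNHG17 had 307, 338 and 254 counts in si-SNHG17-1, against 843, 953 and 948 counts in si-NC. Its log2 fold change was −1.51 ± 0.12 (SE), with a Benjamini-Hochberg adjusted p of 0.00101 by edgeR's quasi-likelihood test. Of 10 hepatocyte and Hep3B markers, 9 stayed under 1 CPM (the count relative to library size, after edgeR's TMM scaling) in every library, and TTR and GPC3 were at 0 counts throughout, where 3 counts would be at most 0.0977 CPM. The cells are therefore called by their label only. Summed markers of fibroblasts and stellate cells came to 244 to 257 CPM in si-SNHG17-1 and 183 to 200 CPM in si-NC, with COL1A2 and PDGFRA, 2 of the 8, at 0. Most of this sum was COL1A1 and COL3A1, which were called higher. PDGFRB went the other way, at 6.7, 7.5 and 5.7 CPM in si-SNHG17-1 and 8.0, 8.4 and 7.9 CPM in si-NC, and was not called. Smooth muscle markers summed to 172 to 186 CPM against 162 to 168 CPM in si-NC, with none of the 8, CNN1 among them, at 0 in all libraries. The 8 epithelial markers summed to 1802 to 1871 CPM against 2464 to 2861 CPM in si-NC, nearly all of it KRT7, KRT8 and KRT18. KRT7 and KRT18 were called lower. Of these 8 markers 4, with EPCAM and CDH1 among them, stayed under 1 CPM in every library. Summed endothelial markers, with KDR the only one of 5 at 0 throughout, were 6.32 to 8.22 CPM in si-SNHG17-1 and 2.77 to 4.41 CPM in si-NC. Of these CDH5 was the only call, with 6.80, 5.72 and 5.14 CPM in si-SNHG17-1 and 1.46, 2.47 and 1.16 CPM in si-NC. PECAM1 went the other way, at 0.419, 0.902 and 0.456 CPM against 1.96, 1.15 and 1.01 CPM in si-NC, and was not called. The 5 blood markers summed to 41.7 to 60.9 CPM in si-SNHG17-1 and 32.9 to 38.5 CPM in si-NC, nearly all of it CD68. The part of these marker levels in the results below was not tested.

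After si-SNHG17-1 the filament binder TAGLN, the myosin genes MYH9, MYH10 and MYL9, the formin gene DIAPH1 and the talin gene TLN1 rose. The crosslinkers FLNA and ACTN4 and the filament-end protector ENAH fell slightly. The 2 nonmuscle myosin II heavy chain genes that passed the filter on low counts and a regulatory light chain gene were among the rises, by 1.21-fold to 1.36-fold, while the smooth muscle type filament binder TAGLN rose 1.99-fold. Of the 47 genes, 45 passed the filter on low counts, and of these 6 (13.3%) rose and 3 (6.67%) fell at an adjusted p under 0.05. Over all 18679 genes tested, 5.25% rose, 5.21% fell and 10.5% were called in either direction. The share called among the 45 genes was 20%, and its difference from the 10.5% background was not tested. It was not above the background in every fit. With DESeq2 the shares were 20% and 16.9%, and with a replicate block 0% and 2.85%. Without si-SNHG17-1 replicate 1 they were 0% and 2.97%, and without si-NC replicate 2 2.22% and 6.15%. Without si-NC replicate 1 they were 11.1% and 7.22%. With libraries scaled by total counts only, 8 of the 45 rose and none fell (17.8% called, beside 10.4% of all genes). Over all 18679 genes, 1168 rose and 781 fell with that scaling. The median log2 fold change with TMM scaling was 0.09, against −0.00 over all genes tested. With total counts only these medians were 0.13 and 0.04. None of the 9 calls was kept in all 6 fits that left out a library, although each of the 9 genes kept its direction in every one of them. In 20 of 45 genes (44.4%) the CPM values of the groups did not overlap, 13 higher and 7 lower in si-SNHG17-1, beside 33.7% of all genes tested (16.4% higher and 17.3% lower).

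**Figure D1:**
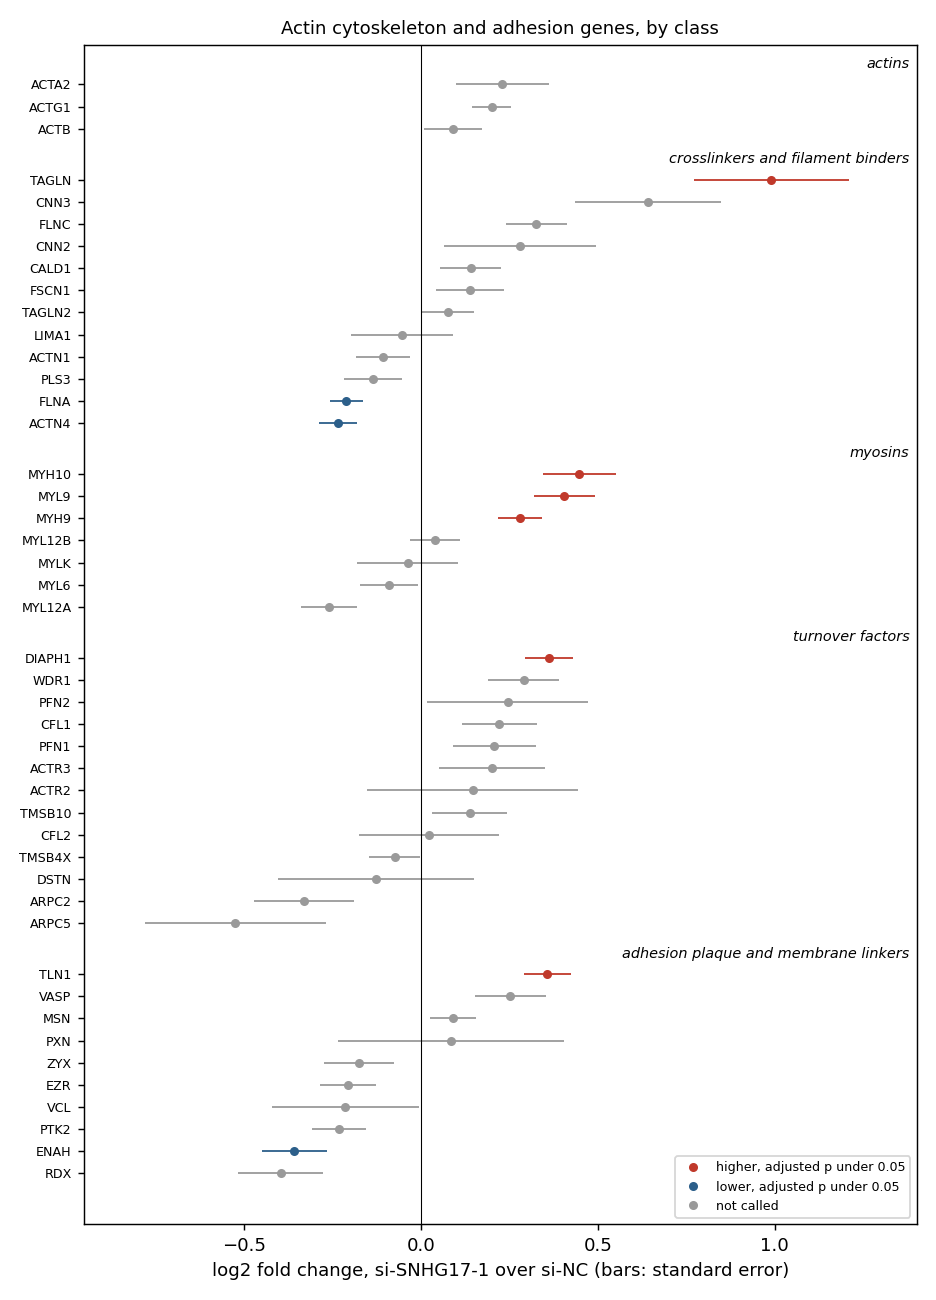
Log2 fold change of each tested gene, si-SNHG17-1 over si-NC, with its standard error (horizontal axis), grouped by class and ordered within it (vertical axis). Red points rose, blue points fell and grey points were not called. Most values lie within 0.5 of zero, and TAGLN, at 0.99, lies farthest to the right.

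Measured per kilobase of exon, so that genes of different length can be set side by side, the 47 genes ran from abundant actins and monomer binders to genes with a handful of counts. The monomer-binding thymosin gene TMSB10 stood highest, with means of 1006 CPM per kb in si-SNHG17-1 and 914 CPM per kb in si-NC. ACTB followed with 696 and 654 CPM per kb and ACTG1 with 546 and 475 CPM per kb. Next came TMSB4X, PFN1 and FLNA, with si-SNHG17-1 levels of 350, 393 and 245 CPM per kb and si-NC levels of 368, 340 and 283 CPM per kb. Near the other end, TAGLN had 8.82 and 4.44 CPM per kb, FLNC 6.07 and 4.84, ACTA2 5.95 and 5.08, CNN3 1.33 and 0.851 and MYLK 0.971 and 0.995 CPM per kb in si-SNHG17-1 and si-NC. CNN1, the smooth muscle calponin gene, had 0, 5 and 5 counts in si-SNHG17-1 and 11, 0 and 0 counts in si-NC. MYH14, the least abundant nonmuscle myosin II heavy chain gene here, had 0, 4 and 4 counts in si-SNHG17-1 and 0, 18 and 0 counts in si-NC. These 2 genes were too low to test.

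**Figure D2:**
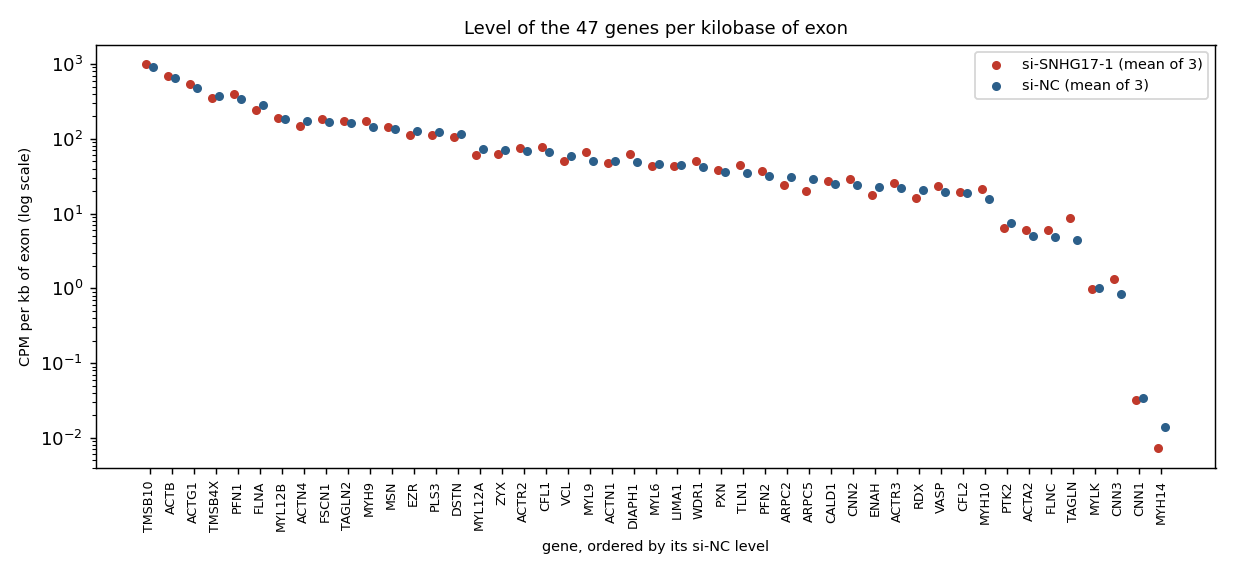
Mean level of each of the 47 genes in CPM per kilobase of exon, on a log axis, in si-SNHG17-1 (red) and si-NC (blue), ordered by the si-NC level. TMSB10, ACTB and ACTG1 lie at the left, and CNN1 and MYH14, which could not be tested, lie lowest at the right.

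Together the 47 genes took 2.14%, 2.16% and 2.17% of all counts in the si-SNHG17-1 libraries, against 2.05%, 2.10% and 2.04% in the si-NC libraries. These are shares of total counts, without the TMM scaling used for CPM. The TMM factors were 1.012 to 1.018 in si-SNHG17-1 and 0.983 to 0.988 in si-NC. On the scale of total counts the groups did not overlap, but the class sums differed in direction. With TMM scaling the sums of all 47 genes overlapped between the groups, and so did those of the actins. Such sums follow the most abundant genes of a class. Myosin genes took 0.279%, 0.278% and 0.273% of counts in si-SNHG17-1, against 0.240%, 0.234% and 0.235% in si-NC. Actins took 0.398%, 0.406% and 0.443%, against 0.357%, 0.355% and 0.393% in si-NC. The sum of crosslinkers and filament binders went the other way, with 0.632%, 0.648% and 0.640% in si-SNHG17-1 and 0.679%, 0.664% and 0.672% in si-NC. FLNA and ACTN4, its most abundant genes, had means of 2591 and 907 CPM in si-SNHG17-1 and 2996 and 1066 CPM in si-NC. Yet 7 of its 12 tested genes had positive log2 fold changes (median 0.11). Among the myosin genes 4 were positive and 3 negative (median 0.04), and MYH9 had means of 1566 and 1289 CPM. The summed shares of turnover factors and of adhesion genes overlapped between the groups. No test was made of these sums.

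None of the 3 actin genes was called, and all 3 had positive log2 fold changes. ACTB, the cytoplasmic beta-actin gene, had 2292, 2341 and 2715 CPM in si-SNHG17-1 and 2264, 2156 and 2481 CPM in si-NC, and these ranges overlapped. Its log2 fold change was 0.09 ± 0.08 (SE). ACTG1, which encodes gamma-actin, had 1623, 1653 and 1625 CPM in si-SNHG17-1 and 1343, 1421 and 1503 CPM in si-NC. All si-SNHG17-1 libraries were thus above all si-NC libraries, but the log2 fold change of 0.20 ± 0.06 (SE) missed the threshold (edgeR adjusted p = 0.0601). It passed with total counts only (0.0326), with limma-voom (0.0467) and without si-NC replicate 3 (0.0491). ACTA2, the smooth muscle alpha-actin gene, had 17.8, 17.8 and 17.6 CPM in si-SNHG17-1 and 15.6, 13.2 and 16.5 CPM in si-NC, with a log2 fold change of 0.23 ± 0.13 (SE; edgeR adjusted p = 0.314). Exons of ACTA2 share 380 bases with FAS and 516 bases with ACTA2-AS1, both on the other strand, and the use of strand in counting is unknown here. The table also lists 10 pseudogenes named after ACTB and 20 named after ACTG1, which held 0.0131% and 0.170% of the counts summed with their parent gene.

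CArG boxes, the DNA motif bound by SRF, were looked for in RefSeq promoters (build GRCh38.p14), from 250 bases before to 50 bases after a RefSeq start. The motif's pattern is the same on both strands. A promoter was found for 41 of the 47 genes, and 5 of these (12.2%) held a CArG box, with a gene counted if any of its promoters held it. Counted per promoter, the box was in 1.29% of all 35116 promoters and in 1.09% of the 16391 promoters of genes tested. The 5 sites are shown because SRF, itself among the genes that rose, binds this motif. Of the 5 genes FLNA fell and the other 4 were not called. Each stretch of 30 bases runs 5′ to 3′ along the gene's strand, with the CArG box in capitals.
ACTG1: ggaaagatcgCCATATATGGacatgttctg
FLNA: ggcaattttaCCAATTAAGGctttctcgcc
ACTN1: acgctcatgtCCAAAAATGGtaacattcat
CNN2: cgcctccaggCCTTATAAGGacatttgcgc
MYLK: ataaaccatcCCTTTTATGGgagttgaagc
They lie at chr17:81512874-81512903 (ACTG1, minus strand), chrX:154374709-154374738 (FLNA, minus strand), chr14:68977718-68977747 (ACTN1, minus strand), chr19:1026509-1026538 (CNN2, plus strand) and chr3:123620623-123620652 (MYLK, minus strand). In ACTG1, FLNA and MYLK the box begins 94 bases before the start that RefSeq gives, in CNN2 89 and in ACTN1 171 bases before it. By the spans in the count table, some of these starts are internal to the gene. The MYLK site lies within 123610049 to 123884331, near the 3′ end, so it is not at the gene's outermost start. The ACTG1 and ACTN1 sites also lie inside their spans (81509971 to 81523847 and 68874143 to 68979440). None of the 4 promoters found for genes that rose held the motif, which says only that it is not in this window.

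Among 12 tested crosslinkers and filament binders, 1 rose and 2 fell (25% called, beside 10.5% of all genes tested). TAGLN (ENSG00000149591.16, chromosome 11, 117199321 to 117204782 of GRCh38) encodes transgelin, an actin bundler known from smooth muscle and a classic SRF target. It had 37.3, 33.7 and 32.8 CPM in si-SNHG17-1, against 13.1, 15.4 and 23.7 CPM in si-NC, so that the lowest si-SNHG17-1 library lay above the highest si-NC library. The log2 fold change was 0.99 ± 0.22 (SE; edgeR adjusted p = 0.0313), the largest of the 45, and it lay between 0.82 and 1.28 with a library left out. The call was kept only without si-NC replicate 3, the si-NC library with the most TAGLN, and the adjusted p reached 0.110 otherwise. Exons of TAGLN share 446 bases with PCSK7 on the other strand, which had 62.6 CPM in si-SNHG17-1 and 61.3 CPM in si-NC (log2 fold change 0.03, not called). Of the 8 smooth muscle markers ACTG2, a smooth muscle actin gene, was the only call, with 24.52, 25.33 and 24.97 CPM in si-SNHG17-1 and 12.39, 14.68 and 15.01 CPM in si-NC. MYH11, DES, SMTN, LMOD1, SYNM and MYOCD were not called, and CNN1 was not tested. DES had 0.811, 1.16 and 0.944 CPM in si-SNHG17-1 and 1.41, 0.982 and 1.77 CPM in si-NC. The part of these markers in the result was not tested.

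FLNA (ENSG00000196924.14, chromosome X, 154348524 to 154374638) encodes filamin A, which links filaments at wide angles and binds integrin tails. It had 2605, 2684 and 2483 CPM in si-SNHG17-1 and 3049, 2942 and 2997 CPM in si-NC, without overlap. ACTN4 (ENSG00000130402.11, chromosome 19, 38647649 to 38731583) encodes alpha-actinin 4, a bundler of stress fibres and invasive protrusions. It had 912, 942 and 867 CPM in si-SNHG17-1 and 1053, 1078 and 1068 CPM in si-NC, again without overlap. Both falls were small, with log2 fold changes of −0.21 ± 0.05 and −0.23 ± 0.05 (SE; edgeR adjusted p = 0.0315 and 0.0347), and the calls of both were lost in all 6 fits that left out a library (adjusted p up to 0.132 and 0.150). With total counts only they missed the threshold at 0.0542 for FLNA and 0.0576 for ACTN4, and with DESeq2 at 0.113 and 0.0764. ACTN4 shares 868 exon bases with CAPN12 on the other strand, which was at 30.0 CPM in si-SNHG17-1 and 34.1 CPM in si-NC.

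The remaining 9 tested crosslinkers were not called. FLNC, the muscle-type filamin gene, had 54.4, 59.7 and 54.8 CPM in si-SNHG17-1 and 43.9, 45.2 and 45.6 CPM in si-NC (log2 fold change 0.33 ± 0.09, SE; edgeR adjusted p = 0.0544), and it was called with DESeq2 (0.0360), total counts only (0.0377) and a filter of 1 CPM (0.0425). Its sign was opposite to that of FLNA. CNN3, the acidic calponin gene, was also without overlap, at 3.74, 3.28 and 4.30 CPM in si-SNHG17-1 and 2.63, 2.35 and 2.27 CPM in si-NC (0.64 ± 0.21, SE; edgeR adjusted p = 0.0922). CNN2, which encodes another calponin, CALD1, the caldesmon gene, FSCN1, which encodes the filopodial bundler fascin, and TAGLN2, a relative of TAGLN, had log2 fold changes of 0.28, 0.14, 0.14 and 0.08, with overlap. ACTN1, the partner of ACTN4, the plastin gene PLS3 and LIMA1, which encodes the filament stabiliser EPLIN, had −0.11, −0.13 and −0.05, with overlap. The sign for LIMA1 turned without si-SNHG17-1 replicate 1 (0.08) or without si-NC replicate 1 (0.04).

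**Figure D3:**
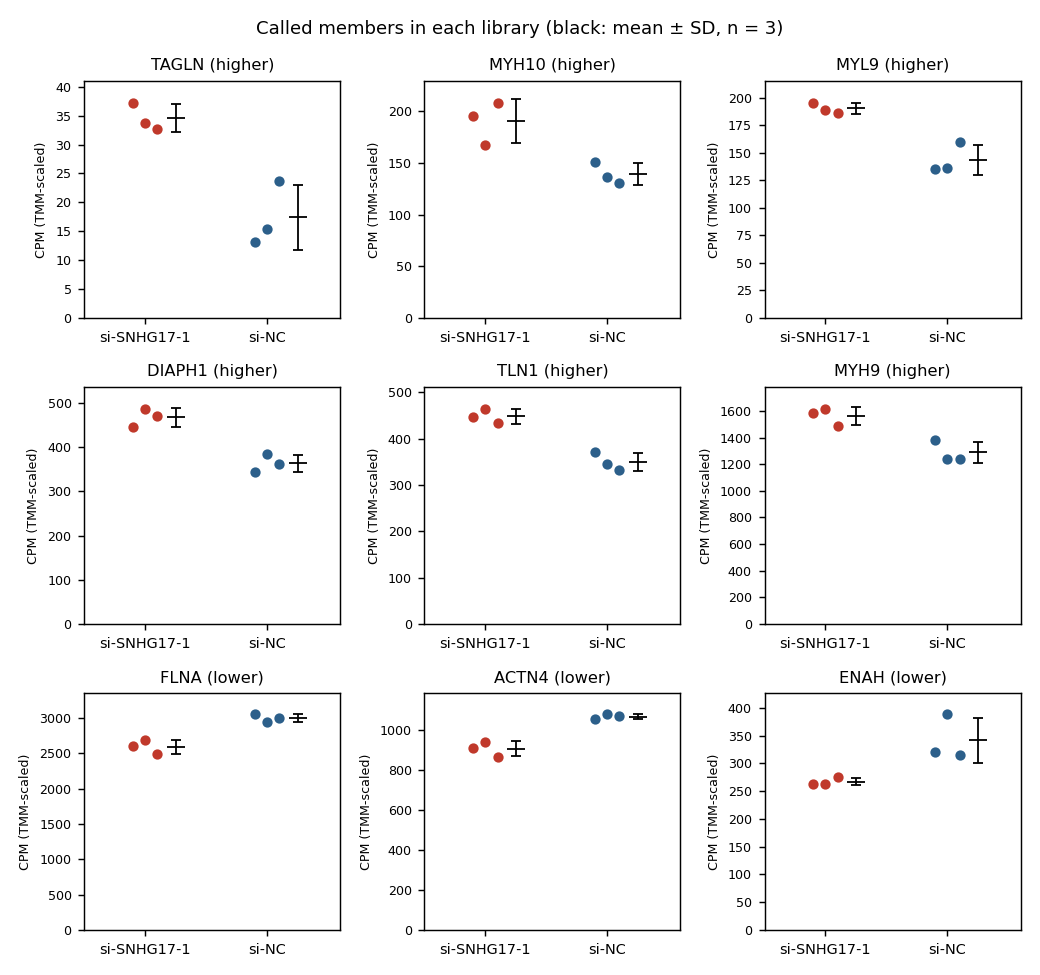
TMM-scaled CPM in each library for the 9 called genes, si-SNHG17-1 at the left (red) and si-NC at the right (blue), with the mean and SD of the 3 libraries in black. The groups do not overlap in any panel, and in TAGLN the 3 si-NC points, 13.1 to 23.7 CPM, spread most for their level.

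Of 7 tested genes of the myosin class, which includes the light chain kinase gene MYLK, 3 rose and none fell (42.9% called, beside 10.5% of all genes tested). MYH9 (ENSG00000100345.20, chromosome 22, 36281281 to 36388018), the heavy chain of nonmuscle myosin IIA, was the most abundant heavy chain gene per kilobase. It had 1589, 1619 and 1489 CPM in si-SNHG17-1, against 1381, 1243 and 1242 CPM in si-NC. MYH10 (ENSG00000133026.12, chromosome 17, 8474205 to 8630761), the heavy chain of myosin IIB, had 196, 167 and 208 CPM in si-SNHG17-1, against 151, 137 and 131 CPM in si-NC. MYL9 (ENSG00000101335.9, chromosome 20, 36541484 to 36551447) encodes a regulatory light chain whose phosphorylation switches contraction on. It had 196, 189 and 187 CPM in si-SNHG17-1, against 135, 137 and 160 CPM in si-NC. Each of the 3 genes was higher in every si-SNHG17-1 library than in any si-NC library. Their log2 fold changes were 0.28 ± 0.06 for MYH9, 0.45 ± 0.10 for MYH10 and 0.41 ± 0.09 for MYL9 (SE; edgeR adjusted p = 0.0331, 0.0351 and 0.0276). With a library left out, MYH9 was called only without si-SNHG17-1 replicate 3 or si-NC replicate 1, MYH10 only without si-SNHG17-1 replicate 2 or si-NC replicate 1, and MYL9 only without si-NC replicate 3, and their adjusted p reached 0.108 in other such fits. MYH9 also missed the threshold without a low-count filter (0.0695).

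The other light chain genes did not follow MYL9. MYL12A, a regulatory light chain gene on chromosome 18, had 195, 192 and 212 CPM in si-SNHG17-1 and 224, 255 and 238 CPM in si-NC. Its groups did not overlap, but the log2 fold change of −0.26 ± 0.08 (SE) was not called (edgeR adjusted p = 0.0790). The antisense gene AP005329.1, which shares 175 exon bases with MYL12A, had 4.22 and 10.6 CPM in si-SNHG17-1 and si-NC (−1.32, not called). MYL12B, its neighbouring paralog, had a log2 fold change of 0.04 ± 0.07, which was −0.01 without si-NC replicate 1. The essential light chain gene MYL6 had −0.09 ± 0.08, and MYLK, the kinase that phosphorylates the regulatory light chains, had 20.9, 20.8 and 22.9 CPM in si-SNHG17-1 and 19.7, 26.0 and 20.5 CPM in si-NC (−0.04 ± 0.14, SE).

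Shares within families do not depend on how libraries are scaled. In the regulatory light chain family MYL9 made up 25.9%, 25.7% and 24.3% of the counts in si-SNHG17-1, against 19.7%, 18.0% and 21.0% in si-NC. The share of MYL12A was 25.7%, 26.2% and 27.6% in si-SNHG17-1 and 32.7%, 33.6% and 31.2% in si-NC, while that of MYL12B averaged 48.2% and 48.0% and overlapped. Among ezrin, radixin and moesin, which tie filaments to the membrane, MSN made up 61.0%, 64.0% and 63.9% in si-SNHG17-1 and 58.6%, 57.1% and 55.5% in si-NC. The balance of this family differed by 5.88 percentage points towards MSN, with EZR lower by a difference of −3.20 points and RDX by −2.68 points. TAGLN made up 7.40% ± 0.609 of its pair with TAGLN2 in si-SNHG17-1 and 4.06% ± 1.2 in si-NC, and FLNA 97.9% ± 0.0697 and 98.5% ± 0.0512 of its pair with FLNC (SD, n = 3 each). These 7 shares were without overlap between groups. Shares within a family depend on each other, so those of MYL9 and MYL12A are not separate results, nor are those of EZR, RDX and MSN. The exact two-sided permutation test gave p = 0.1 for each of the 7 shares, the smallest that 3 against 3 libraries allow. It was 0.343 after adjustment over the 24 shares compared. The other shares overlapped, including that of ACTB among actins, at 59.6% ± 2.30 in si-SNHG17-1 and 61.5% ± 1.29 in si-NC (SD, n = 3 each), and that of MYH9 among heavy chains, at 89.1% ± 1.46 and 90.2% ± 0.218.

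**Figure D4:**
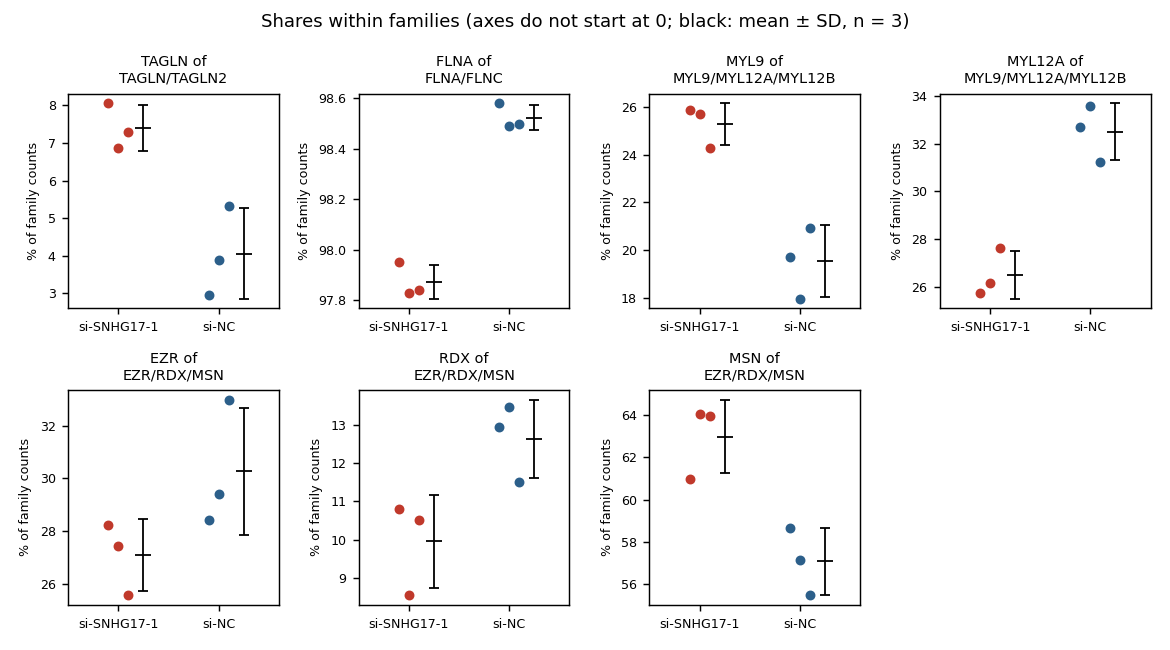
Share of a gene in the summed counts of its family, in percent, for the 7 shares whose groups did not overlap, si-SNHG17-1 at the left (red) and si-NC at the right (blue), with mean and SD in black. Vertical axes do not start at 0. MYL9 and MSN take larger shares in si-SNHG17-1, and MYL12A, EZR and RDX smaller ones.

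Of 13 turnover factors, 1 rose and none fell (7.69% called, against the same 10.5%). DIAPH1 (ENSG00000131504.15, chromosome 5, 141515016 to 141619055), a formin that nucleates and elongates straight filaments when bound by RHOA, had 446, 488 and 470 CPM in si-SNHG17-1, against 345, 384 and 363 CPM in si-NC. The groups did not overlap, and the log2 fold change was 0.36 ± 0.07 (SE; edgeR adjusted p = 0.0189). The call was kept without si-NC replicate 1 or si-NC replicate 2, and lost in the other 4 fits with a library left out (adjusted p up to 0.0803). WDR1, which helps cofilin to disassemble filaments, and CFL1, the main cofilin gene, were also without overlap. WDR1 had 457, 383 and 355 CPM in si-SNHG17-1 and 327, 310 and 340 CPM in si-NC (0.29 ± 0.10, SE; edgeR adjusted p = 0.113). CFL1 had 494, 430 and 456 CPM in si-SNHG17-1 and 425, 423 and 335 CPM in si-NC (0.22 ± 0.11, SE; edgeR adjusted p = 0.231), and it shares exon bases with MUS81 and SNX32 on the other strand. PFN1, a profilin gene whose product recharges monomers, had the highest CPM of the class, with 820, 680 and 841 CPM in si-SNHG17-1 and 582, 763 and 682 CPM in si-NC (0.21 ± 0.12, SE; edgeR adjusted p = 0.311). Its groups overlapped. PFN2 had a log2 fold change of 0.25, and the thymosin genes TMSB10 and TMSB4X had 0.14 and −0.07, all with overlap.

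Members of the Arp2/3 complex, which nucleates branched filaments, did not share a direction. ACTR3 had a log2 fold change of 0.20 ± 0.15 and ACTR2 of 0.15 ± 0.30, while ARPC2 had −0.33 ± 0.14 and ARPC5 −0.52 ± 0.26 (SE), and none was called. Single libraries weighed on several of these values. ARPC5 had 204, 233 and 208 CPM in si-SNHG17-1 and 239, 460 and 229 CPM in si-NC, high in si-NC replicate 2, and its log2 fold change was −0.12 without that library. ACTR2 had 414, 363 and 209 CPM in si-SNHG17-1 and 309, 384 and 197 CPM in si-NC, low in replicate 3 of each group. DSTN, which encodes the cofilin relative destrin, had 427.5, 392.2 and 399.0 CPM in si-SNHG17-1 and 244, 588 and 498 CPM in si-NC, and CFL2 138, 141 and 136 CPM and 93.6, 175 and 140 CPM. For DSTN, the sign turned without si-NC replicate 2 (0.13), and the gene was called lower without si-NC replicate 1 (edgeR adjusted p = 0.0382). The coefficient of variation between replicates was larger in si-NC than in si-SNHG17-1 for 29 of the 45 genes (64.4%), beside 58.7% of all genes tested. Its median over the 45 genes was 5.61% in si-SNHG17-1 and 9.07% in si-NC. Over all genes tested the medians were 12.3% and 15.4%.

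Of 10 adhesion plaque and membrane linker genes, 1 rose and 1 fell (20% called, against 10.5%). TLN1 (ENSG00000137076.20, chromosome 9, 35696948 to 35732395) encodes talin 1, which activates integrins and ties them to actin. It had 446, 465 and 433 CPM in si-SNHG17-1, against 371, 345 and 333 CPM in si-NC, without overlap (log2 fold change 0.36 ± 0.07, SE; edgeR adjusted p = 0.0187). The call was kept without si-SNHG17-1 replicate 3 or si-NC replicate 1 and lost in the other 4 fits with a library left out (adjusted p up to 0.0739). ENAH (ENSG00000154380.17, chromosome 1, 225486835 to 225653142) encodes MENA, which shields growing filament ends from capping. It had 263, 264 and 275 CPM in si-SNHG17-1, against 321, 388 and 316 CPM in si-NC. The groups did not overlap, but the call was marginal (−0.36 ± 0.09, SE; edgeR adjusted p = 0.0493), was lost whichever library was left out (up to 0.181), and was lost with median-of-ratios scaling (0.0543), total counts only (0.0733) and a filter of 1 CPM (0.0524). VASP, the paralog of ENAH, had the opposite sign, at 79.4, 81.6 and 92.4 CPM in si-SNHG17-1 and 67.1, 67.8 and 77.6 CPM in si-NC (0.25 ± 0.10, SE; edgeR adjusted p = 0.150).

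The rest of the adhesion group was not called. RDX, EZR and PTK2, the gene of focal adhesion kinase, were lower in every si-SNHG17-1 library than in any si-NC library, with log2 fold changes of −0.40 ± 0.12, −0.20 ± 0.08 and −0.23 ± 0.08 (SE; edgeR adjusted p = 0.0796, 0.146 and 0.102), and RDX was called with DESeq2 (0.0371). MSN, with the highest CPM of the class, had 855, 885 and 840 CPM in si-SNHG17-1 and 865, 805 and 751 CPM in si-NC, with overlap (0.09 ± 0.07, SE; edgeR adjusted p = 0.432). ZYX, the gene of the tension-sensitive plaque protein zyxin, had −0.17 ± 0.10 (SE), with overlap. VCL, the vinculin gene, had 399, 572 and 551 CPM in si-SNHG17-1 and 706, 638 and 419 CPM in si-NC (−0.21 ± 0.21, SE), and its exons share 1109 bases with AP3M1 on the other strand, which fell (−0.44). PXN, the gene of the scaffold paxillin, had 295, 298 and 265 CPM in si-SNHG17-1 and 342, 335 and 131 CPM in si-NC. Its log2 fold change of 0.09 ± 0.32 became −0.24 without si-NC replicate 3, the library with 131 CPM.

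A list of 166 other genes of actin assembly, contraction and adhesion was set beside the 47. Of its 161 tested genes, 11 (6.83%) were higher and 12 (7.45%) lower, and the median log2 value was −0.00. The share called was 14.3%, beside the 10.5% background. Of these 23 calls, 13 were kept whichever library was left out.

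In the signalling that drives polymerisation and contraction, 3 of 31 genes rose and 3 fell (19.4% called, beside the 10.5% background). RAC1, the GTPase that drives lamellipodia, had 305, 304 and 316 CPM in si-SNHG17-1, against 190, 184 and 175 CPM in si-NC (1.69-fold, log2 fold change 0.75 ± 0.07, SE; edgeR adjusted p = 0.00152). RHOB, an inducible small GTPase gene, had 1220, 1260 and 1155 CPM in si-SNHG17-1, against 722, 732 and 882 CPM in si-NC (1.56-fold; edgeR adjusted p = 0.00628). RND3, which antagonises RHOA signalling, had 130, 114 and 116 CPM in si-SNHG17-1, against 79.4, 74.2 and 64.0 CPM in si-NC (1.65-fold; edgeR adjusted p = 0.00754). The 3 rises held whichever library was left out. The class I myosin gene MYO1E fell by 0.48 on the log2 scale, and leaving out any library did not end the call. PKN2, a protein kinase gene, fell by 0.57 and lost its call without si-SNHG17-1 replicate 1 or 2 (edgeR adjusted p up to 0.0785).

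Among capping and severing genes, 2 of 28 rose and 2 fell (14.3% called, beside 10.5%). LIMK1, the gene of the kinase that inactivates cofilin, had 123, 96.8 and 128 CPM in si-SNHG17-1, against 40.2, 58.6 and 50.8 CPM in si-NC. It rose 2.32-fold (log2 fold change 1.21 ± 0.16, SE; edgeR adjusted p = 0.00576), the groups lay far apart, and leaving out any library did not end the call. VIL1, the gene of the microvillar bundler villin, rose 2.07-fold at a low level (13.4 ± 2.17 CPM in si-SNHG17-1 and 6.47 ± 0.487 CPM in si-NC, SD, n = 3 each). GSN, which encodes the severing protein gelsolin, fell to 81.6, 64.7 and 66.9 CPM in si-SNHG17-1, against 118, 109 and 131 CPM in si-NC (−0.75 ± 0.12, SE; edgeR adjusted p = 0.00963), a call lost without si-SNHG17-1 replicate 3 (0.0510). TWF2, a twinfilin gene, fell by 0.30 and kept its call in none of the 6 fits (up to 0.184).

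In the nucleation lists, 1 of 18 genes around the Arp2/3 complex rose and 2 fell (16.7% called), and 2 of 9 formins rose and 1 fell (33.3% called), beside the 10.5% background. CTTN, the gene of the branch stabiliser cortactin, had 280, 284 and 274 CPM in si-SNHG17-1, against 183, 173 and 191 CPM in si-NC (1.53-fold; edgeR adjusted p = 0.00317, kept whichever library was left out). WASL, which activates the complex, fell by 0.73 and ABI2, a subunit of the WAVE regulatory complex, by 0.47. WASL kept its call only without si-NC replicate 1 (edgeR adjusted p up to 0.0939), and ABI2 only without si-SNHG17-1 replicate 3 or si-NC replicate 1 (up to 0.0955). The formin genes FMNL1 and FMNL3 rose 1.52-fold and 1.57-fold, and INF2, a formin gene whose product also acts at the endoplasmic reticulum, fell by 0.41 on the log2 scale. FMNL1 lost its call without si-SNHG17-1 replicate 1 (0.0563), FMNL3 without si-SNHG17-1 replicate 1 or 2 or si-NC replicate 2 or 3 (up to 0.0650), and INF2 without si-SNHG17-1 replicate 1 or 3 (up to 0.0806).

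Among other adhesion plaque genes, 1 of 42 rose and 2 fell, a share of 7.14% beside the 10.5% background. TNS4, which encodes the integrin-binding tensin 4, had 106, 102 and 105 CPM in si-SNHG17-1, against 226, 211 and 223 CPM in si-NC. Its log2 fold change of −1.07 ± 0.07 (SE; edgeR adjusted p = 0.000444) had the smallest adjusted p in these lists, and the call was kept whichever library was left out, as was that of LIMD1 (−0.85 ± 0.10, SE), a LIM scaffold gene. TGFB1I1, the gene of the paxillin relative HIC-5, rose 1.64-fold, a call kept only without si-NC replicate 3 (up to 0.140). Of 25 tested genes listed as crosslinkers outside the 47, 1 rose and 2 fell (12.0% called, beside 10.5%). That list also holds genes that do not crosslink filaments, such as TNNC1. CSRP2, the gene of a LIM protein of smooth muscle, rose 1.88-fold. TNNC1, which encodes a troponin C of slow muscle, fell to 16.3 CPM in si-SNHG17-1, against 31.0 CPM in si-NC, and DBNL, which encodes an actin-binding adaptor, fell by 0.33 (kept only without si-NC replicate 1, up to 0.147).

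SRF itself, the transcription factor of CArG boxes, rose. It had 237, 239 and 231 CPM in si-SNHG17-1, against 170, 161 and 179 CPM in si-NC, without overlap (1.39-fold, log2 fold change 0.47 ± 0.07, SE; edgeR adjusted p = 0.00819). The call outlasted the loss of any library (edgeR adjusted p up to 0.0472) but was lost with the replicate block (0.0571). Its actin-sensing coactivator gene MKL1 had a log2 fold change of 0.33 ± 0.10 and MKL2 of 0.08 ± 0.39 (SE), and neither was called. In the list of 8 genes of SRF, its coactivators and its partners SRF was the only call (12.5%, beside 10.5%).

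**Figure D5:**
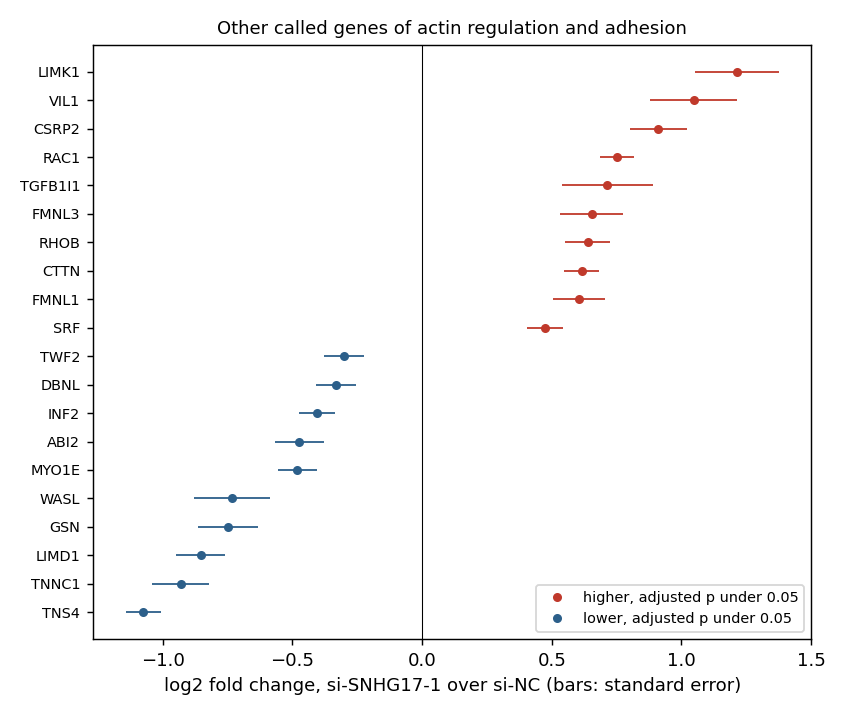
Log2 fold change, si-SNHG17-1 over si-NC, with its standard error (horizontal axis) for 20 called genes of actin regulation and adhesion outside the 47, up to 2 per class and direction (vertical axis). Red points rose and blue points fell. LIMK1, at 1.21, and TNS4, at −1.07, lie at the ends.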

How the data were processed

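The deposited table holds unnormalised counts, as whole numbers, for each gene and library. The submitters' processing notes name HISAT2 and the build GRCh38; the sources used here do not give the counter, its annotation release or whether it used strand. Groups and replicate numbers came from library titles. Replicates of a group differed beyond counting noise (chi-square over its degrees of freedom 26.6 to 56.4), and all 6 libraries were kept.

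The comparison used edgeR 4.0.16 (R 4.3.3): filterByExpr (minimum count 10, minimum total 15), TMM scaling, the quasi-likelihood F test on all 6 libraries without a block, and Benjamini-Hochberg adjustment over 18679 genes, with calls at an adjusted p under 0.05. The scripts were tested on simulated data. For standard errors, the size of each log2 fold change was divided by the root of its F statistic. The floor of 3 counts covers counting error only. Exon lengths and overlaps came from GENCODE release 29, matched without the version. Alternatives were median-of-ratios scaling, total counts, no filter, a filter of 1 CPM in 3 libraries, DESeq2 1.42.0, limma-voom (limma 3.58.1), a replicate block and each library left out.

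The 47 genes, the 166 other genes, the markers and the rule for named genes were chosen with earlier results of these data known. That rule takes SNHG17, all 47 genes, with full values for those called, for the most abundant gene of each class and, in a class with no call, for the 2 with the smallest adjusted p, and up to 2 called genes per class and direction of the 166. RND3 and PKN2 were named beyond it, after their values were seen, as further calls, and so were MKL1, MKL2 and the genes overlapping exons of the 47. 1 called gene is not reported here.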

Additional observations from a re-analysis of the deposited data

How the results depend on the processing

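SNHG17 stayed lower and called under every alternative (log2 fold change −1.53 to −1.48 with a library left out). All 9 called genes of the 47 kept their direction under all alternatives. Calls of the 47 (6 higher, 3 lower) were 8 and 0 with total counts only, 5 and 0 without a low-count filter, and 0 to 4 and 0 to 1 with a library left out. The labels do not say whether replicate numbers pair the libraries. Same-numbered libraries shared no deviation from their group means (correlations −0.04, −0.02 and −0.02), which does not exclude that they were handled in pairs. With the replicate block 0 of the 47 rose and 0 fell (edgeR adjusted p for the 9 genes up to 0.123). In that fit 6 and 6 of the 166 other genes were called, and 273 and 259 of all genes. Over all genes, 980 rose and 974 fell, 313 to 694 and 264 to 705 with a library left out, 627 fell without a filter, and 1168 rose and 781 fell with total counts only. The other genes of the list gave 8 to 11 rises and 7 to 12 falls with a library left out. By class, the actins had 1 call with total counts only or limma-voom, and 0 to 1 with a library left out. Crosslinkers had 2 rises with total counts only, the 1 CPM filter or DESeq2, 0 falls with total counts only, without a filter or with DESeq2, and 0 to 1 rises and 0 falls with a library left out. Myosins had 0 to 2 rises, and turnover factors 0 to 1 rises and 0 to 1 falls, with a library left out. Adhesion genes had 0 falls with median-of-ratios scaling, total counts, no filter or the 1 CPM filter, 2 with DESeq2, and 0 to 1 rises and 0 falls with a library left out. With the replicate block the counts were 0 in every class. Signs of 7 uncalled genes turned. MYLK had 0.0043 with total counts only. With a library left out, the log2 fold changes ran from −0.16 to 0.083 for LIMA1, −0.014 to 0.071 for MYL12B, −0.11 to 0.099 for MYLK, −0.19 to 0.24 for CFL2, −0.42 to 0.13 for DSTN, −0.077 to 0.40 for ACTR2 and −0.24 to 0.29 for PXN. The cause of lost calls was not tested, and fits with a library left out have fewer libraries. With 3 libraries a group, a gene that was not called is not shown to be unchanged.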
